A study of Homo sapiens with 6 samples.

Results

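GSPT2, which encodes one of the 2 forms of the translation release factor eRF3, had between 456 and 533 reads in every control library of the prostate cancer cell line PC3 and no read in any library of PC3 cells that overexpressed GCNT1. Its paralogue GSPT1 and the partner of both proteins, ETF1, did not pass the test: GSPT1 was 0.10 lower and ETF1 0.02 higher on the log2 scale. The genes described are GSPT2, GSPT1, ETF1, HBS1L and UPF1, which are 5 of the 12703 genes in the count table. GSPT2 was chosen by its fall to 0 counts in this same comparison, so its own values are given as a description without a test, and the other 4 genes were chosen for what their proteins do around GSPT2. Each gene was found by its symbol and NCBI gene number, and all 5 were in the table.

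PC3 is an established human line from a bone metastasis of prostate cancer. The control group was PC3 carrying a negative-control lentivirus (labelled Lenti-ORF control), and the other group was PC3 carrying a lentivirus that expresses GCNT1, an enzyme that builds branched O-glycans on proteins. Both groups were stably transduced, and each had 3 libraries numbered as biological replicates. The promoter that drives GCNT1 and whether a line is 1 clone are not given in the sources used here. No drug, time course or animal entered the comparison.

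Translation ends when eRF1, the product of ETF1, recognises a stop codon in the ribosome, and eRF3, a GTPase bound to eRF1, drives release of the finished protein. Human cells have an eRF3a gene, GSPT1, with many exons, and an eRF3b gene, GSPT2, an intronless copy on the X chromosome that arose from a reverse-transcribed GSPT1 messenger RNA. HBS1L is a relative of eRF3 that works with PELO (Pelota, a relative of eRF1) to rescue stalled ribosomes, and UPF1 is the helicase of nonsense-mediated decay, the pathway that degrades messages whose translation ends early and that contacts the release factors.

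Because GSPT2 is a copy of GSPT1, the most and the least alike windows of their aligned coding sequences are shown, among windows with no gap in the alignment, since these bear on whether a read can be told apart. On GRCh38, GSPT2 is a single exon at chrX:51743442-51746232 on the plus strand, and its transcript is 2791 bases long. GSPT1 lies at chr16:11868128-11916654 on the minus strand, and its canonical transcript has 15 exons. In the most alike window of 120 coding bases, 117 bases were identical, and capitals mark the 3 that differ. The GSPT1 window spans chr16:11886886-11887643 (minus strand, coding bases 884 to 1003, with an intron inside the span) and the GSPT2 window is chrX:51744483-51744602 (plus strand, coding bases 857 to 976).
GSPT1, most alike: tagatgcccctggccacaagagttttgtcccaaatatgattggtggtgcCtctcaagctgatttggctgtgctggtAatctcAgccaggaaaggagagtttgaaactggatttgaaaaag
GSPT2, most alike: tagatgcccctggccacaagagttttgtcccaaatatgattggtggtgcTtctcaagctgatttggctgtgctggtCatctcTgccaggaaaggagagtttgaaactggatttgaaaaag
In the least alike of these windows without gaps, 24 of 120 bases differed, again in capitals, and stretches that cross alignment gaps were left out. It is at chr16:11896601-11896720 in GSPT1 (minus strand, coding bases 502 to 621) and chrX:51744101-51744220 in GSPT2 (plus strand, coding bases 475 to 594).
GSPT1, least alike: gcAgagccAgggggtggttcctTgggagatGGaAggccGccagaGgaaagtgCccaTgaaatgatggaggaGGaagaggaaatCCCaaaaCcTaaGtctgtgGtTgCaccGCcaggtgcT
GSPT2, least alike: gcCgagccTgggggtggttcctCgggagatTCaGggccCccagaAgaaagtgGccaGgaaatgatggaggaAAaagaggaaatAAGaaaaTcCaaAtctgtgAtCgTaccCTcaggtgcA
Over the whole coding sequences (1914 bases in GSPT1, 1887 in GSPT2), 1653 of 1861 aligned bases were identical, which is 88.8%, and the longest identical run was 49 bases.

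The reads were 75 bases long, so every 75-base stretch of the GSPT2 transcript was compared with 10 GSPT1 transcripts without gaps. None of the 2717 stretches was identical to any GSPT1 transcript, and the closest had 1 mismatch. Within 2 mismatches lay 21 stretches (0.773%), and within 5 mismatches lay 366 (13.5%), while the median stretch had 10 mismatches. Reads from the few most alike stretches could still be split between the genes by a mapper that tolerates mismatches, and how such reads were counted is not given in the sources used here. GENCODE 44 has no other gene over GSPT2, ETF1 or UPF1. Over GSPT1 it has 2 genes on the same strand and 2 on the opposite strand, and over HBS1L 1 on each, none of which is in the table.

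**Figure D1:**
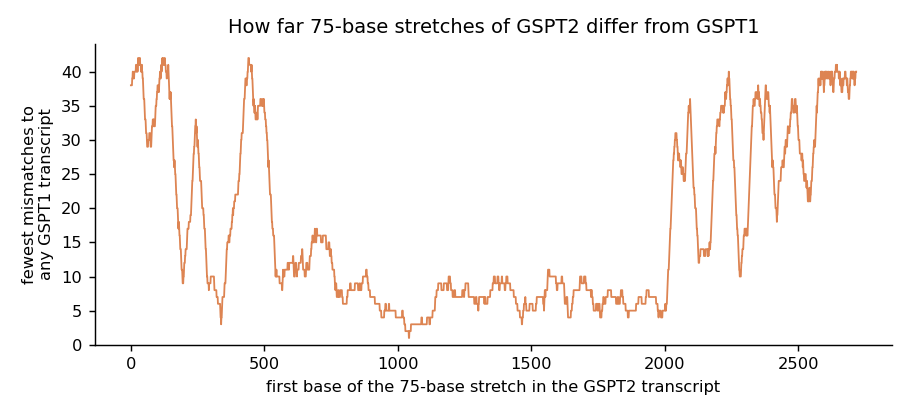
Fewest mismatches (vertical axis) between each 75-base stretch of the GSPT2 transcript and any of 10 GSPT1 transcripts, against the first base of the stretch in the GSPT2 transcript (horizontal axis). The line falls to 1 mismatch at its lowest and never reaches 0, and the median stretch has 10.

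The 6 libraries held 11392213 to 13825704 counts each, at which 3 counts, the floor used here, equal 0.213 to 0.259 CPM. CPM are counts scaled to the size of the library, here with TMM factors, which correct for differences in composition between libraries, and floors cover counting error, while the 95% intervals of fold changes also hold the spread between libraries. GCNT1 itself, the targeted gene, had 9, 13 and 8 counts in the control libraries and 13, 16 and 35 in the overexpressing libraries, so the groups met at 13 counts, and its log2 fold change was 0.98 (SE 0.37, edgeR quasi-likelihood test, Benjamini-Hochberg adjusted p = 0.0362). Whether reads from the lentiviral insert were counted on GCNT1 is not given in the sources used here, which limits what these counts say about overexpression. The call was lost without overexpressing replicate 3 (0.49, edgeR adjusted p = 0.269), without control replicate 1 (0.91, edgeR adjusted p = 0.0920), without control replicate 3 (0.88, edgeR adjusted p = 0.0944) and in DESeq2 (adjusted p = 0.0821). The study also examined GCNT1 in its overexpressing PC3 cells by real-time PCR, ELISA and immunocytochemistry, whose values were not used here. The PC3 markers KRT8, KRT18, EPCAM and VIM were all counted (EPCAM lowest, at 51 to 86 counts), while KLK3, which PC3 lacks, was not among the genes of the table. Of 6 markers of immune, endothelial and stromal cells, 5 were not among the genes of the table, and the endothelial marker PECAM1 rose from 18, 24 and 23 to 59, 54 and 60 counts. The part of PECAM1-expressing cells in the results below was not tested.

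GSPT2 had 505, 533 and 456 counts in control replicates 1 to 3, or 40.1, 42.8 and 38.6 CPM (mean 40.5 ± 2.14, SD, n = 3). In the GCNT1 overexpressing libraries it had 0, 0 and 0 counts. All controls were therefore far above the floor and all overexpressing libraries were at 0, and against the floor of 3 counts per library GSPT2 was at least 176-fold lower. Summed over libraries, 1494 control reads faced 0, while GSPT1 had 8801 reads in the same 3 overexpressing libraries. At the same floor of 3 counts per library, 9 in all, a count of 0 beside those 8801 reads allows up to 0.102% as many GSPT2 reads as GSPT1 reads, and since some stretches of the 2 transcripts differ by so few bases, this also limits the GSPT1 reads counted on GSPT2. In the controls GSPT2 took 14.6%, 15.1% and 13.6% of the reads that the pair had together.

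**Figure D2:**
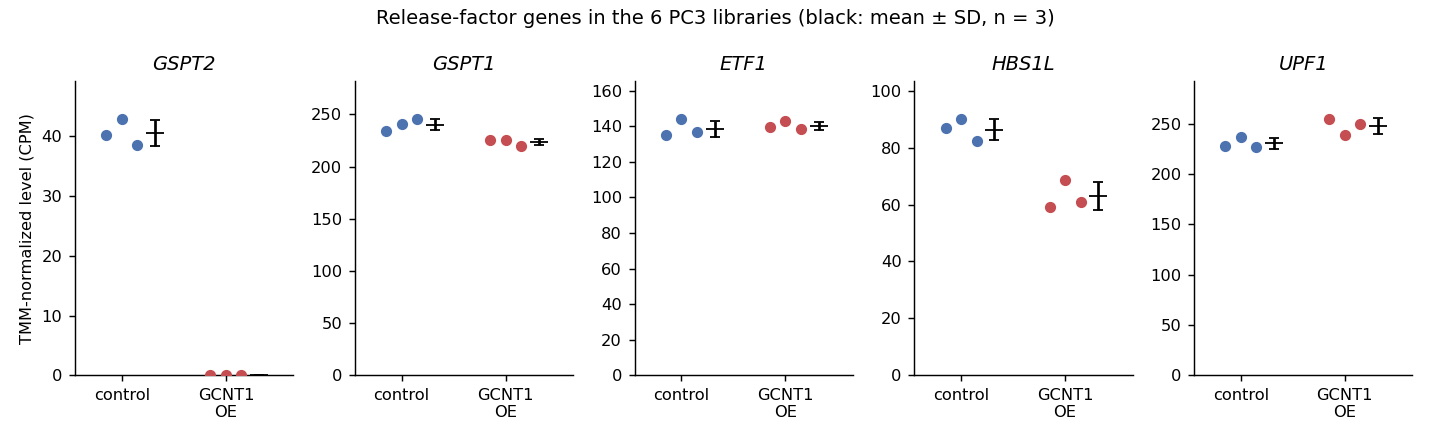
TMM-normalised level (CPM, vertical axis from 0) of GSPT2, GSPT1, ETF1, HBS1L and UPF1 in 3 control (blue) and 3 GCNT1 overexpressing (red, GCNT1 OE) libraries, with the mean ± SD of each group in black. GSPT2 lies between 38.6 and 42.8 CPM in the controls and at 0 with GCNT1 overexpression, GSPT1, HBS1L and UPF1 have groups that do not overlap, and the ETF1 groups overlap.

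GSPT1, the eRF3 gene that both groups kept, had 2950, 2994 and 2898 counts in the controls and 2607, 3093 and 3101 with GCNT1 overexpression. Scaled, these were 234, 240 and 245 CPM against 225, 225 and 219.8 CPM (240.0 ± 5.38 against 223 ± 3.13, SD, n = 3). Every overexpressing library was below every control library, by a small margin. The log2 fold change was -0.10 (SE 0.04, 95% interval -0.20 to -0.01), and it missed the threshold of 0.05 in edgeR's quasi-likelihood test (Benjamini-Hochberg adjusted p = 0.0603, over all genes). The interval did not reach above 0, so a rise of GSPT1 beside the absent GSPT2 was not seen. With library size alone in place of TMM factors the value was -0.05 with an interval from -0.14 to 0.05.

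ETF1, which encodes eRF1, had 1698, 1790 and 1615 counts in the controls and 1612, 1959 and 1952 with GCNT1 overexpression. Its levels were 135, 144 and 137 CPM against 139, 143 and 138 CPM (138 ± 4.69 against 140.1 ± 2.24). The groups overlapped. The log2 fold change was 0.02 (SE 0.05, 95% interval -0.09 to 0.12, edgeR Benjamini-Hochberg adjusted p = 0.785), so small changes in either direction lie within the interval. ETF1 lies at chr5:138506095-138543236 on the minus strand of GRCh38.

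Among the genes other than GSPT2, which was not tested, HBS1L alone passed the adjusted p threshold. It had 1091, 1119 and 973 counts in the controls and 685, 944 and 861 with GCNT1 overexpression, or 86.7, 89.9 and 82.3 CPM against 59.2, 68.7 and 61.0 CPM (86.3 ± 3.80 against 63.0 ± 5.06). Every overexpressing library was below every control library. HBS1L fell by 0.45 on the log2 scale (SE 0.07, 95% interval -0.60 to -0.31, edgeR Benjamini-Hochberg adjusted p = 6.59e-05), which did not reach the fold threshold of 0.58 that the study also required. These are bulk libraries, so less RNA in each cell cannot be told apart from fewer cells that hold it. HBS1L lies at chr6:134960378-135054822 on the minus strand. The 50 tested genes nearest to it, 25 on each side in gene order here and below, had a median log2 fold change of -0.41. Of these, 16 passed both thresholds as lower and 6 as higher, while of all genes 11.1% passed as lower and 8.28% as higher. HBS1L differed from that median by -0.04, and the part of its neighbourhood in its fall was not tested.

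UPF1, at chr19:18831959-18868230 on the plus strand, had 2870, 2947 and 2683 counts in the controls and 2944, 3282 and 3519 with GCNT1 overexpression. Its levels were 228, 237 and 227 CPM against 254, 239 and 249 CPM (231 ± 5.33 against 248 ± 7.89), and every overexpressing library was above every control library. The log2 fold change was 0.10 (SE 0.05, 95% interval 0.003 to 0.20, edgeR Benjamini-Hochberg adjusted p = 0.0727) and missed the threshold. UPF1 passed it with library size alone (0.16, edgeR adjusted p = 0.00809) and without overexpressing replicate 2 (0.13, edgeR adjusted p = 0.0459). The 50 tested genes nearest to UPF1 had a median log2 fold change of 0.10.

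Of the 4 genes that could be tested, 0 passed both thresholds, 1 passed the adjusted p alone and 3 had groups that did not overlap. Across all genes, 19.3% passed both thresholds (8.28% higher and 11.1% lower with GCNT1 overexpression), 57.6% passed the adjusted p alone (28.3% higher and 29.3% lower) and 62.5% had groups that did not overlap, so none of these counts was large beside the shares over all genes. The median log2 fold change of the 4 genes was -0.04, against 0.00095 for all genes, whose quartiles were -0.27 and 0.26.

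Levels were compared between genes as CPM per kb of exon, a level per length. In the controls ETF1 (30.5 ± 1.03) and GSPT1 (29.8 ± 0.668) lay within their spread of each other, followed by UPF1 (25.8 ± 0.597), GSPT2 (14.5 ± 0.768) and HBS1L (7.78 ± 0.343). With GCNT1 overexpression ETF1 stood at 30.9 ± 0.494, GSPT1 at 27.7 ± 0.389 and UPF1 at 27.7 ± 0.883, so GSPT1 and UPF1 did not differ beyond their spread, and HBS1L followed at 5.68 ± 0.456. When the length of the canonical transcript was used, a choice made after seeing the data, UPF1 came first in the controls (43.3), then ETF1 (37.6), GSPT1 (33.6), GSPT2 (14.5) and HBS1L (12.2). The order of the upper 3 genes thus depended on the length, and that of GSPT2 above HBS1L did not.

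Per kb, GSPT2 stood at 48.7% of the GSPT1 level in the controls and made up 33.1%, 33.9% and 31.2% of the summed eRF3 transcripts (32.7 ± 1.38%). The summed level of GSPT1 and GSPT2 was 43.5, 45.2 and 44.3 CPM per kb in the controls and 28.0, 28.0 and 27.3 with GCNT1 overexpression (44.3 ± 0.857 against 27.7 ± 0.389). The overexpressing libraries therefore had 0.626 of the control level of eRF3 transcripts, or 0.650 with the canonical length. Since GSPT2 was chosen for its fall, this sum is a description and was not tested. The share and the sum rest on the length taken for GSPT1, 8054 bases over all exons or 7141 in its canonical transcript, against 2791 for GSPT2. Which GSPT1 transcripts the cells held was not measured, and by reads alone GSPT2 was 13.6% to 15.1% of the pair in the controls. Relative to ETF1, the eRF3 sum was 1.45 ± 0.0233 in the controls and 0.898 ± 0.0112 with GCNT1 overexpression.

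GSPT1 alone relative to ETF1, a measure that does not use GSPT2, was 0.979, 0.942 and 1.01 in the controls and 0.911, 0.889 and 0.895 in the overexpressing libraries. The groups did not overlap, and the log2 ratio differed by -0.12 (exact two-sided permutation test over 3 and 3 libraries, p = 0.10, which is the smallest p that this design allows). Messenger RNA levels were measured here, and protein levels of the release factors were not.

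**Figure D3:**
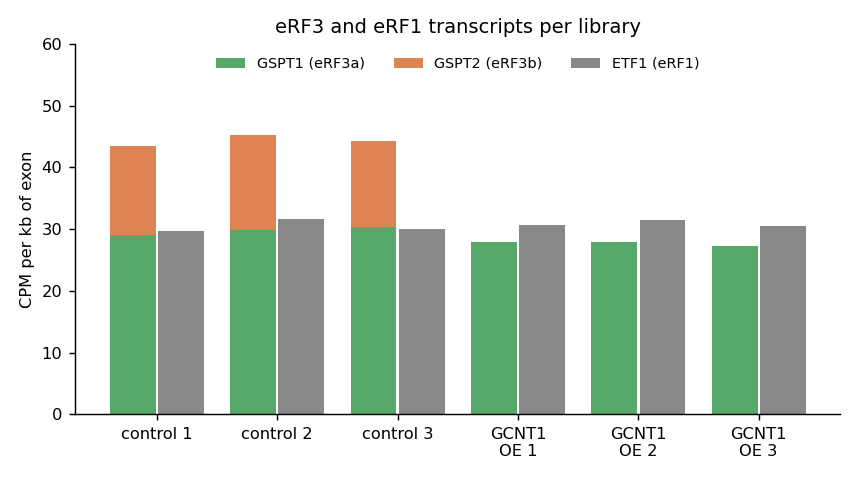
Level in CPM per kb of exon (vertical axis from 0) of GSPT1 (green) with GSPT2 stacked on top (orange), and of ETF1 (grey), in each of the 3 control and 3 GCNT1 overexpressing (GCNT1 OE) libraries. The stacked bars reach 43.5 to 45.2 in the controls and 27.3 to 28.0 with GCNT1 overexpression, where the orange part is absent, while ETF1 stays near 30.

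The other genes of termination, ribosome rescue and nonsense-mediated decay gave a wider view of the pathway. Of 73 genes listed without GSPT2, 72 were in the table, and 3 passed both thresholds, all lower with GCNT1 overexpression. That is 4.17%, below the 19.3% of all genes that passed in either direction and the 11.1% that passed as lower. On the adjusted p alone 17 were higher, 24 were lower and 31 did not pass, or 56.9% passing against 57.6% of all genes, and the median log2 fold change was 0.01 (all genes 0.00095). With library size alone the split on adjusted p was 24 higher and 16 lower. The same scaling moved the split of all genes from 3593 higher and 3721 lower to 4290 and 3144, and their median to 0.059, so no direction is read from the balance of small changes.

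In termination, 16 genes were tested and 7 passed the adjusted p, 3 higher and 4 lower, against 57.6% of all genes. The split was 7 and 1 with library size alone, and it was 3 and 1 in DESeq2 and without control replicate 1, control replicate 2, overexpressing replicate 2 or overexpressing replicate 3. PAIP1, a protein that binds the poly(A)-binding protein and stimulates translation, had 1494, 1514 and 1354 counts in the controls and 806, 972 and 946 with GCNT1 overexpression. Its groups were well apart, and PAIP1 was downregulated by both thresholds (log2 fold change -0.77, SE 0.05, edgeR Benjamini-Hochberg adjusted p = 6.45e-08). The 50 genes nearest to PAIP1 had a median of -0.62. HEMK2 (older symbol N6AMT1), the catalytic subunit that methylates eRF1, had 61, 68 and 71 counts in the controls and 100, 98 and 111 with GCNT1 overexpression, a rise of 0.53 on the log2 scale that was under the fold threshold (edgeR adjusted p = 0.00417). TRMT112, its activating subunit, had a log2 fold change of 0.09 and did not pass (edgeR adjusted p = 0.211).

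PABPC1, the main cytoplasmic poly(A)-binding protein, which contacts eRF3, rose by 0.25 on the log2 scale, and DDX19A, a helicase that acts with the release factors, rose by 0.31. DDX19B, its paralogue, was at -0.17, PAIP2, an inhibitor of the poly(A)-binding protein, at -0.14 and EIF3J at -0.13. These 3 genes passed the adjusted p by a small margin, and of 13 alternatives DDX19B kept that call in 4 and PAIP2 and EIF3J in 6 each. The recycling factor ABCE1 (0.04), JMJD4 (0.10, an eRF1 hydroxylase), GLE1 (0.08), OGFOD1 (0.05), PABPC4 (0.10) and TOE1 (0.22) did not pass the adjusted p.

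In ribosome rescue, 30 of 31 listed genes were in the table, and 21 passed the adjusted p, 8 higher and 13 lower (70.0%, against 57.6% of all genes), with a median of -0.07. The split was 9 and 9 with library size alone and 7 and 9 without overexpressing replicate 3. PELO, the partner of HBS1L, was the one gene past both thresholds (3.33%, against 19.3% of all genes). It had 475, 507 and 515 counts in the controls and 202, 297 and 263 with GCNT1 overexpression, and its log2 fold change was -1.07 (SE 0.09, edgeR Benjamini-Hochberg adjusted p = 3.96e-07). PELO lies inside ITGA1, an integrin gene on the same strand, whose counts were 389, 355 and 280 in the controls and 9, 18 and 19 with GCNT1 overexpression (-4.56), and the antisense gene PELO-AS1 overlaps it on the other strand. Reads in any stretch that both gene models include cannot be told apart, so the PELO value is uncertain, and the 50 genes nearest to PELO had a median of -0.57. Both members of the rescue pair HBS1L and PELO were thus lower on the adjusted p, with the reservation on PELO.

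The largest other changes in the rescue list were in EDF1 (0.52), which is recruited to collided ribosomes and rose on the adjusted p, and in RPS27A (-0.52), EIF4E2 (-0.48) and GIGYF2 (-0.47), which fell. EIF4E2 and GIGYF2 encode a complex that represses translation of messages with stalled ribosomes.

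In nonsense-mediated decay, 27 genes were tested and 13 passed the adjusted p (48.1%, against 57.6% of all genes), 6 higher and 7 lower (8 and 6 with library size alone), with a median of 0.003. PNRC2, an adaptor between UPF1 and decapping, had 1057, 1010 and 992 counts in the controls and 598, 733 and 714 with GCNT1 overexpression, and it was downregulated by both thresholds (log2 fold change -0.68, SE 0.05, edgeR Benjamini-Hochberg adjusted p = 3.18e-07). The decapping enzyme DCP2 (-0.54), NBAS (-0.50) and the kinase SMG1 (-0.34), which phosphorylates UPF1, fell, while UPF2 (0.47) and SMG8 (0.34) rose. SMG1 lost its call with library size alone, in DESeq2 and without control replicate 1. The bridging factors UPF3A (0.03) and UPF3B (0.12) did not pass.

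The pathway's reported target transcripts were counted as a separate list of 18 genes. Past both thresholds, 4 were higher and 0 lower (22.2%, near the 19.3% of all genes in either direction, with 8.28% as higher). On the adjusted p alone 8 were higher and 4 lower (66.7%, against 57.6% of all genes), or 9 and 3 with library size alone, with a median of 0.14. Past both thresholds the count was 3 higher without overexpressing replicate 1, where SNHG15 was under the fold threshold, and 5 higher with library size alone, without control replicate 3 and without overexpressing replicate 2. Without overexpressing replicate 3 it was 5 higher and 1 lower. The 4 were ATF3 (1.03) and UPP1 (1.01), which also respond to stress, and the snoRNA host transcripts SNHG1 (0.64) and SNHG15 (0.62). Of the other target transcripts, GADD45B rose by 0.58 (just under the fold threshold) and PTBP2 fell by 0.46. Their total RNA level was measured, and the isoforms that are decay substrates were not told apart.

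**Figure D4:**
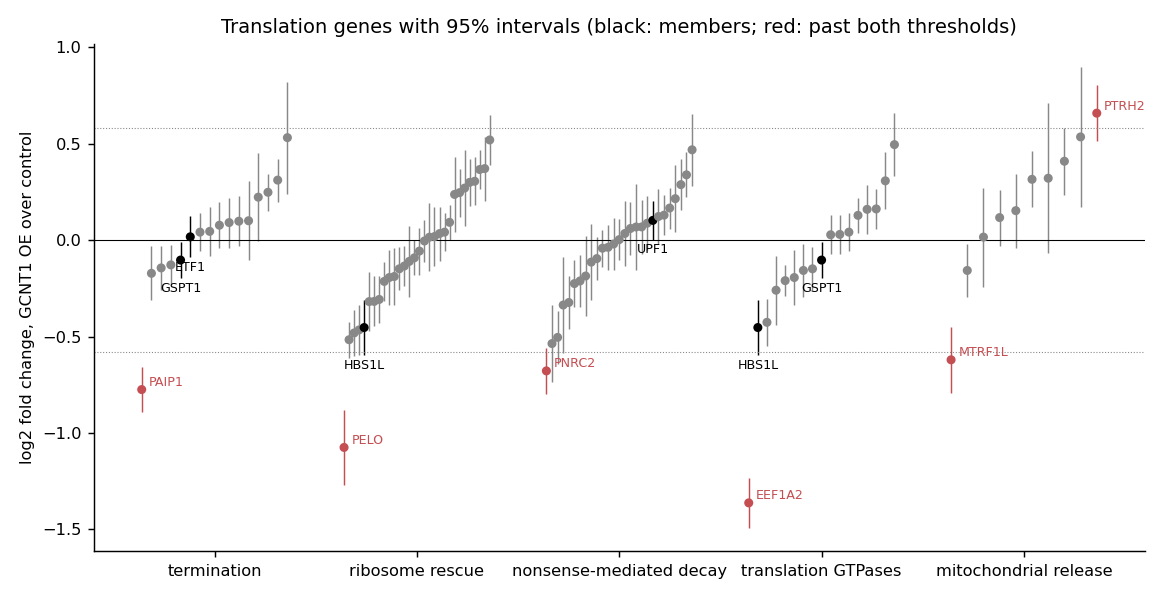
Log2 fold change with GCNT1 overexpression (vertical axis, 95% intervals) of each tested gene in 5 lists (horizontal axis), sorted within a list, with GSPT1, ETF1, HBS1L and UPF1 in black, genes past both thresholds in red and the fold threshold of 0.58 as dotted lines. Most genes lie between the dotted lines, and PAIP1, PELO, PNRC2, EEF1A2 and MTRF1L are below and PTRH2 is above them.

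GSPT1, GSPT2 and HBS1L belong to a wider family of translation GTPases. Of 17 genes listed without GSPT2, 13 passed the adjusted p, 5 higher and 8 lower (76.5%, against 57.6% of all genes), and 1 passed both thresholds (5.88%, against 19.3%). The split was 5 and 4 with library size alone and 3 and 4 without overexpressing replicate 3. That gene was EEF1A2, the tissue-restricted form of the elongation factor that brings aminoacyl-tRNA to the ribosome, which had 6402, 6578 and 6638 counts in the controls and 2581, 2615 and 2945 with GCNT1 overexpression (log2 fold change -1.36, SE 0.06, edgeR Benjamini-Hochberg adjusted p = 8.45e-10). Its ubiquitous paralogue EEF1A1 fell by 0.21. EEF1A reads also map to near-identical copies, so these values carry that limit.

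In the other pairs of paralogues with related roles that are given here, no member went to 0. The pair UPF3A and UPF3B stood at 0.03 and 0.12, MAGOH and MAGOHB of the exon junction complex at 0.22 and 0.07, and GTPBP1 and GTPBP2 at -0.15 and -0.19 on the log2 scale. In DDX19A and DDX19B, and in the mitochondrial release factors MTRF1 (0.54) and MTRF1L (-0.62), both members passed the adjusted p in opposite directions, although that of DDX19B was lost in 9 of 13 alternatives and that of MTRF1 without overexpressing replicate 2. The sequences of DDX19A and DDX19B, and of MAGOH and MAGOHB, were not compared here. Reads from stretches that paralogues share could be split between them, so the separate values are uncertain. The E3 ligase that can be directed to GSPT1 protein by degrader drugs was also listed. Of its 5 genes CRBN (-0.23) and RBX1 (-0.24) fell on the adjusted p (40.0%), while CUL4A (-0.11), CUL4B (-0.08) and DDB1 (-0.001) did not pass. Of all genes, 57.6% passed the adjusted p, 29.3% as lower. Past both thresholds there were 0 of the 5 ligase genes, against 19.3% of all genes. Of 13 alternatives CRBN kept its call in 11 and RBX1 in 9.

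The chromosome around GSPT2 showed no like fall in the nearest genes. MAGED1, the nearest tested gene, begins 56.8 kb after GSPT2 and had 6829, 6677 and 6872 counts in the controls and 6265, 7153 and 7235 with GCNT1 overexpression (log2 fold change -0.08, edgeR Benjamini-Hochberg adjusted p = 0.173). The nearest tested gene on the other side, CLCN5, lies 1644 kb away and had 191, 204 and 172 counts against 142, 233 and 187 (-0.11, edgeR adjusted p = 0.433). Both had overlapping groups. Of the 5 tested genes on each side, USP27X-DT (0.63), GPR173 (0.64) and IQSEC2 (0.60) passed both thresholds as higher. PPP1R3F (-0.46) and TSPYL2 (0.24) passed the adjusted p alone, and FOXP3 (0.10), USP27X (0.18) and KDM5C (-0.07) did not.

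Within 10 Mb of GSPT2 there were 84 other tested genes, of which 6 passed both thresholds as higher and 7 as lower (15.5%, against 19.3% of all genes), with a median of 0.05. The lowest of them were MAOA (-3.82) and WNK3 (-2.66). On the whole X chromosome 93 of 429 tested genes passed both thresholds (21.7%, 47 higher and 46 lower, against the same 19.3%), with a median of 0.11.

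**Figure D5:**
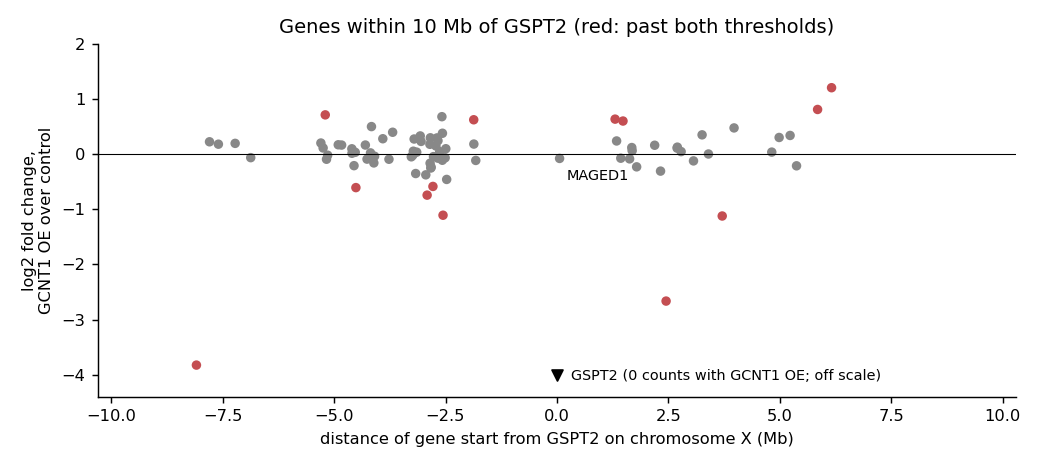
Log2 fold change with GCNT1 overexpression (vertical axis) of tested genes within 10 Mb of GSPT2 against the distance of the gene from GSPT2 in Mb (horizontal axis), with genes past both thresholds in red. GSPT2, with 0 counts in the overexpressing libraries, is drawn off scale as a black triangle, and MAGED1, the nearest gene, lies near 0.

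GSPT2 was 1 of 34 genes with 0 counts in all 3 overexpressing libraries, which lay on 17 chromosomes, 3 of them on X (GSPT2, GPM6B and HS6ST2). By control level GSPT2 ranked 2 among these, after TMEM98 at 71.9 CPM and before EMB at 23.4 CPM. Among the 34, GSPT2 was the one protein-coding gene whose canonical transcript is a single exon. Of 218 protein-coding genes of that kind in the table, 57 passed both thresholds (26.1%, 25 higher and 32 lower, against 19.3% of all genes) and their median was -0.06, and GSPT2 was the one of them at 0 in all overexpressing libraries.

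The genes whose levels over the 6 libraries lay nearest to GSPT2 (Euclidean distance of log2 of CPM plus 1) were CEACAM6, ZFPM2, CEMIP, RTL8B and COL5A1. CEACAM6, a cell-surface adhesion protein, was nearest at a distance of 0.401, with 438, 437 and 431 counts in the controls and 0, 0 and 2 with GCNT1 overexpression. CEMIP, a hyaluronan-degrading protein, had 423, 382 and 369 against 1, 0 and 0 counts. RTL8B, which is also on X, had 426, 524 and 455 against 6, 4 and 13 counts, so it kept some reads. The nearest genes to GSPT1 were HMGXB3 (distance 0.0665), DHX9, EEF1B2, MGAT2 and ZFP91, whose log2 fold changes lay between -0.15 and -0.05.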

How the data were processed

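RNA from 3 control and 3 GCNT1 overexpressing PC3 libraries was measured. From stranded mRNA libraries read singly over 75 bp, the authors made a table of counts by trimming (Cutadapt), alignment to hg38 (HISAT2) and counting on genes (featureCounts). They deposited raw counts per gene, without normalization or pooling. The gene annotation, the strand setting and the treatment of multiply mapped reads are not given in the sources used here. No gene was under 1.01 CPM in more than 3 libraries, so rarer genes had been removed.

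Counts were tested in R 4.3.3 with edgeR 4.0.16 (filterByExpr, which kept all 12703 genes, TMM factors, quasi-likelihood test, Benjamini-Hochberg adjustment). Calls required an adjusted p under 0.05 together with a log2 change of 0.58 or more in size. Alternatives were RLE factors, library size alone, limma-voom 3.58.1, DESeq2 1.42.0, other filters, a replicate block, each library left out and other transcript lengths. Symbols were matched for 12661 genes, with positions and overlaps from GENCODE 44. Levels per kb used the union of a gene's exons. Libraries of a group differed by more than sampling noise (chi-square per degree of freedom 1.65 to 5.57), so each counted as 1 sample. The study names 3 lines per group, and whether each came from its own transduction is not stated, so p-values measure the spread between these libraries.

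The named genes are the 5 genes, list genes past both thresholds and up to 6 of the largest changes per list, termination genes, paralogue pairs, the 5 genes most like GSPT2 and GSPT1, and 5 neighbours of GSPT2 on each side. MAOA, WNK3, ITGA1, TMEM98, EMB, GPM6B and HS6ST2 were chosen after their values were seen. The members and lists were chosen with earlier results of these data known. Part of what the lists give is not reported here.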

Additional observations from a re-analysis of the deposited data

How the results depend on the processing

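GSPT1 (log2 -0.11 to -0.05) and ETF1 (0.01 to 0.07) stayed above, and HBS1L (-0.52 to -0.40) under, the adjusted p threshold in all 13 alternatives fitted. UPF1 passed with library size alone (0.16), and it ranged from 0.083 to 0.13 with 1 library left out. The summed eRF3 level moved from -0.68 on the log2 scale to -0.62 with library size alone, with the longest transcript and with the canonical transcript, by construction of the scaling or length. The GSPT2 bound ranged from 169.6-fold to 187.9-fold lower with 1 library left out, and with a minimum of 10 counts in every library GSPT2 was left out of the 12045 genes tested. On the adjusted p alone 7314 genes were called in place of 2457, and 41 in place of 3 in termination, rescue and decay, where leaving out 1 library gave 3 to 5 genes. DCP2 and HEMK2 were added without control replicate 3 or without overexpressing replicate 2. MTRF1L fell under the fold threshold with library size alone (-0.56) and without overexpressing replicate 1 (-0.58). With the replicate block GSPT1 was -0.10, ETF1 0.02, HBS1L -0.46 and UPF1 0.10, no call of these 4 changed, genes past the adjusted p were 3 higher and 1 lower in termination and 7 and 9 in rescue, and the ratio of GSPT1 to ETF1 was -0.12 (exact permutation p = 0.25, the smallest for 3 pairs). The deviations of same-numbered libraries correlated at -0.354, 0.0226 and -0.163, so the numbers were not taken as pairs. Depth limits GSPT2 to under 0.213 to 0.259 CPM with GCNT1 overexpression.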

Other observations

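Mitochondria end translation with their own release and recycling factors, and 10 such genes were tested. By both thresholds 1 was higher and 1 lower (19.3% of all genes passed in either direction). On the adjusted p alone 4 were higher and 2 lower (5 and 1 with library size alone), with a median log2 fold change of 0.23. These 6 of 10 were near the share of all genes past the adjusted p, 57.6% (28.3% higher and 29.3% lower). Past both thresholds MTRF1 was added as higher, making 2, with library size alone, without control replicate 1 and without overexpressing replicate 3. MTRF1L, the release factor that reads the stop codons of most mitochondrial messages, had 364, 362 and 314 counts in the controls and 198, 265 and 261 with GCNT1 overexpression, a log2 fold change of -0.62 (SE 0.08, edgeR Benjamini-Hochberg adjusted p = 2.16e-05). The 50 genes nearest to MTRF1L had a median of -0.25. PTRH2, a peptidyl-tRNA hydrolase, had 546, 515 and 561 counts in the controls and 851, 914 and 969 with GCNT1 overexpression (0.66, SE 0.07, edgeR Benjamini-Hochberg adjusted p = 2.88e-06). In both genes the groups did not overlap. PTRH2 overlaps CLTC and VMP1 on the opposite strand, and whether the counting used strand is not given in the sources used here. The ribosome recycling factor MRRF rose by 0.41 and the rescue factor MTRFR by 0.32 on the adjusted p.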
